A study of Mus musculus with 8 samples.

Results

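The regions described are ATAC-seq peaks of *Arid1a* cKO spermatocytes, each of which covered ground that the *Arid1a* WT list divided into 2 or more separate peaks. They were found by collapsing the deposited rows of each peak to the interval from its lowest start to its highest end, and by keeping cKO peaks on the 19 autosomes that were narrower than 5000 bp and shared at least 1 bp with at least 2 WT peaks. There were 535 such peaks among the 30244 peaks of the cKO list. They made up 1.91% of the 28071 autosomal cKO peaks under 5000 bp and 3.39% of the 15792 that overlapped any WT peak. They are called fusing cKO peaks below, and the WT peaks under them are called their WT components. The members were chosen by the overlap of the lists, so their counts, gaps and extra bases are given as descriptions without a test.

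Chromatin accessibility was profiled in mouse pachytene spermatocytes, purified from adult testes by Sta-Put sedimentation, with 4 libraries of 100000 cells for each genotype. *Arid1a* cKO males were Arid1a fl/fl and carried a Stra8-Cre transgene, which is expressed in spermatogonia, and *Arid1a* WT males carried floxed alleles without Cre. The study gives a CD1 background for the floxed *Arid1a* mice and states none for the Stra8-Cre line. Testes of several males were pooled and the replicates were cryopreserved aliquots, so replicates may be technical. The study describes excision by Stra8-Cre as incomplete, and reports an arrest at mid-pachynema of spermatocytes that lack ARID1A. The lists may therefore differ in stage as well as in genotype, and these cannot be told apart here. With 1 deposited peak list per genotype, values have no replicate error, and no difference between genotypes could be tested.

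ARID1A binds DNA as part of BAF, a SWI/SNF remodeler that slides and evicts nucleosomes with energy from ATP. In ATAC-seq a transposase cuts DNA that nucleosomes leave open, and a peak is an interval where cut fragments pile up above the background. A peak caller ends a peak where the pile falls under its threshold, and joins stretches that lie closer than a set distance. Pachynema is the stage of meiotic prophase in which paired chromosomes are fully synapsed and recombination proceeds, and in which many genes needed later by spermatids are already transcribed.

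Where a gap is short, the bases between the WT components of a fusing cKO peak can be read in full. The sequences below lay between WT components at 4 promoters or gene bodies, were read from RefSeq's mouse genome (GRCm38.p6, the assembly of mm10), and are written on the plus strand with CpG dinucleotides, the sites of DNA methylation, in capitals. They are the gaps of the named genes with the fewest bases between WT components that overlapped no annotated UTR. All 4 were shorter than 275 bp, the smallest distance between neighbouring peaks of the cKO list. The peak caller may have joined stretches across them, which was not tested. Of the 569 gaps, 25 (4.39%) were at most 275 bp long, and the median gap was 516 bp.
Gaa: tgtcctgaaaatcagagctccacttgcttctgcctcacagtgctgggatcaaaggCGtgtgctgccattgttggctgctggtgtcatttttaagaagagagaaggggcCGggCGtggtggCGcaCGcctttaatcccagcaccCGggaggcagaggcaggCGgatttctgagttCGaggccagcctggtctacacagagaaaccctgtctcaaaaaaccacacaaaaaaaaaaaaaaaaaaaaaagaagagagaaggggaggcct
Mmp23: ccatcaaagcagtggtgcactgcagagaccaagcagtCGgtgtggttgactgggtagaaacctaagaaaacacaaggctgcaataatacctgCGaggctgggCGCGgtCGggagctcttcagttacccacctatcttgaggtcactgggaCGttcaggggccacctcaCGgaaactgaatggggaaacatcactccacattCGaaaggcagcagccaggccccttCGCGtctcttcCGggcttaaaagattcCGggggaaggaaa
Il11ra2: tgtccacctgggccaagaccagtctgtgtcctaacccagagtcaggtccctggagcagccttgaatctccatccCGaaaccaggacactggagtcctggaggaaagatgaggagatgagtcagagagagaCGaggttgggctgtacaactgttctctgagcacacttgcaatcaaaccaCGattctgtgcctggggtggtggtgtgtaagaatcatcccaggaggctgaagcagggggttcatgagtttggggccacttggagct
Pom121: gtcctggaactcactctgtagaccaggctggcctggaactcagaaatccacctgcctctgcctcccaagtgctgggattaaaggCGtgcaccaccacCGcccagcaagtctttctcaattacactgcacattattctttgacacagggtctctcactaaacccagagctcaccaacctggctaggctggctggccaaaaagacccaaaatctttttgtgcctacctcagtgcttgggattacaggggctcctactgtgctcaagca
The *Gaa* gap, chr11:119266769-119267033, lay upstream of the acid alpha-glucosidase gene with its centre 986 bp before the start. It held 8 CpG sites, and 91.3% of its bases were marked as repeats in the reference. The *Mmp23* gap, chr4:155652092-155652356, lay 1160 bp downstream of the start of a matrix metalloproteinase gene, held 12 CpG sites and was 7.92% repeat. The *Il11ra2* gap, chr4:42660670-42660934, lay in an intron of an interleukin 11 receptor gene and held 3 CpG sites. None of its sampled 50-base words was unique in the genome (0%), so reads there could have come from a near-identical copy. The *Pom121* gap, chr5:135395348-135395613, lay 935 bp upstream of the start of a nuclear pore gene, held 2 CpG sites and was 66.2% repeat.

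Of the 535 fusing cKO peaks, 502 covered 2 WT peaks, 32 covered 3 and 1 covered 4. The peak over 4 WT peaks was intergenic and 4549 bp wide, with *Gcfc2* the nearest protein-coding gene. Together they took in 1102 distinct WT peaks of the 18345 autosomal WT peaks, and closed 569 gaps. The median width was 2993 bp (95% order-statistic interval, 2863 to 3164), of which a median of 1518 bp (1419 to 1632) lay inside WT components. A median of 554 bp (508 to 600) lay between the components, and a median of 515 bp (473 to 556) lay beyond the outermost ones. Intervals on medians and shares cover counting error only. Summed over all 535 peaks, 888492 bp (54.6%) lay inside WT peaks, 377335 bp (23.2%) between them and 362287 bp (22.3%) beyond them. The extra 739622 bp were therefore split about evenly between the gaps and the outer flanks. WT components in turn reached outside the fusing peaks by 91633 bp in all, with a median of 0 bp.

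A single gap was 516 bp long at the median (474 to 566) and ranged from 265 to 2912 bp, the longest lying in *Dazap1*. It was at most 300 bp in 67 gaps (11.8%; 95% Wilson interval, 9.38 to 14.7) and 1000 bp or more in 102 (17.9%; 15 to 21.3). No neighbouring peaks were closer than 265 bp in the WT list or 275 bp in the cKO list, and 25 of the 569 gaps (4.39%) were 275 bp or shorter.

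The 15257 autosomal cKO peaks over exactly 1 WT peak give the scale of ordinary widening. Their median width was 1334 bp, with 818 bp inside the WT peak and 430 bp (424 to 438) outside it, against 1191 bp (1132 to 1246) outside WT components for the fusing peaks. The width of a fusing peak was 1.85 times the bases inside its WT components at the median (1.76 to 1.91), and that of a peak over 1 WT peak was 1.51 times (1.502 to 1.521). Of all bases in peaks over 1 WT peak, 36.3% lay outside it. The value for fusing peaks includes the gaps, which the rule requires, and bases beyond the outermost components were 22.3% of their total.

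The same rule turned round gives a background that is not independent of the fusing cKO peaks. In *Dazap1*, for example, the WT peak at chr10:80273530-80274912 covered 2 cKO peaks and was itself a WT component of a fusing cKO peak. How many WT peaks did both was not counted. WT peaks that covered 2 or more cKO peaks numbered 101 of 18204 autosomal WT peaks under 5000 bp (0.555%), or 0.583% of the 17338 that overlapped any cKO peak. The number of fusing cKO peaks was 5.30 times larger. These 101 WT peaks were 1652 bp wide at the median, closed gaps of 400.5 bp, and had a median of 0 bp beyond the outermost cKO peaks. The cKO peaks under them ran past the WT peak by a median of 1441 bp in all. When both lists were limited to peaks on 3 or more rows, the numbers were 203 and 71.

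Distance was compared over neighbouring pairs. In the WT list 3248 neighbouring pairs lay less than 5000 bp apart, and 569 of them (17.5%; 16.2 to 18.9) were joined by a fusing cKO peak. For pairs 300 to 399 bp apart 50.4% (44.5 to 56.2) were joined, for pairs 500 to 749 bp apart 38.4% (33.4 to 43.8), for pairs from 1000 to under 1500 bp apart 17.0% (13.6 to 20.9), and for pairs from 2000 to under 3000 bp apart 1.92% (1.05 to 3.50). None of the 806 pairs from 3000 to under 5000 bp apart was joined. The width limit of 5000 bp bears on that count and on the other shares. A pair joined only by a wider peak counts as not joined. Autosomal peaks of 5000 bp or more over 2 or more peaks of the other list numbered 343 in cKO and 10 in WT. In the cKO list 6841 neighbouring pairs lay less than 5000 bp apart. Of these, 102 (1.49%; 1.23 to 1.81) were joined by a WT peak under 5000 bp, and the share was 6.69% (4.93 to 9.01) at 300 to 399 bp.

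**Figure D1:**
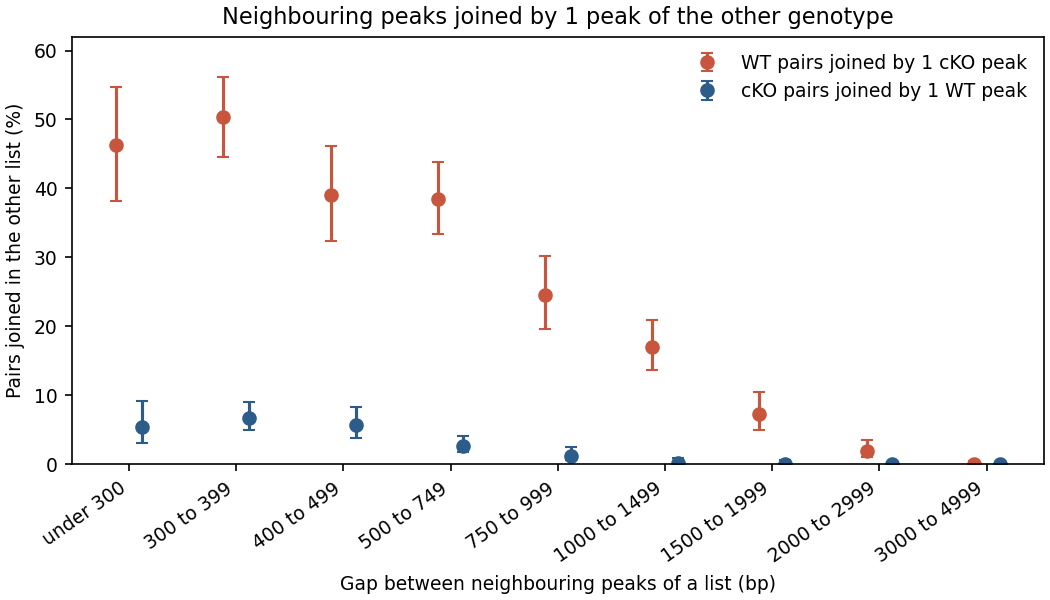
Share of neighbouring peaks of a list (%, vertical axis) joined by 1 peak under 5000 bp of the other genotype, by the gap between them (bp, horizontal axis). Pairs joined only by a wider peak count as not joined. Points are shares with 95% Wilson intervals; the WT pairs joined by cKO peaks (red) lie above the cKO pairs joined by WT peaks (blue) at every gap under 3000 bp, from 50.4% against 6.69% at 300 to 399 bp to 1.92% against 0% at 2000 to under 3000 bp.

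The lists do not state how their rows relate to the libraries. From the methods and the repeated names, the names and values of a list were read as those of 1 library, and a row as the stretch where such a peak met a peak of another library of the same genotype. No base lay under more than 3 rows, the number of other libraries. On that reading, on which the library counts here and below depend, the rows over a gap count the other libraries whose own peak spanned it. In 438 of 535 fusing cKO peaks (81.9%; 78.4 to 84.9) every gap was spanned in all 3 other cKO libraries. In 66 it was spanned in 2, in 22 in 1 and in 9 in none. The 9 were the peaks at *Hormad2*, *Trim11*, *Cdkn3*, *Gle1*, *Rabepk* and *Slc25a38* and 3 peaks without a protein-coding start, nearest to *Ccdc188*, *Fam205a2* and *Fry* (the 9 are named because they are so few, after their values were seen). For these, no row ran across the gap.

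Other WT libraries may have spanned a gap that the naming WT library left, and the WT rows, which stop at the edges of its peaks, give only an upper limit. At most 1 of the 3 other WT libraries could have spanned a gap in 277 fusing peaks (51.8%; 47.5 to 56.0), at most 2 in 189 and all 3 in 69. In 208 fusing peaks (38.9%; 34.8 to 43.1) all 3 other cKO libraries spanned every gap and at most 1 other WT library could have done so. In the reverse set all 3 other WT libraries spanned every gap in 8 of 101 peaks (7.92%; 4.07 to 14.9). At most 1 other cKO library could have spanned a gap in only 6 of 101, and 0 of 101 met both conditions (up to 3.66%). The upper limit rises with the number of rows on the joined peaks. The weakest joined peak lay on 3 or more rows in 88.1% of the reverse set and 40.7% of fusing cKO peaks. The shares that met both conditions are therefore not alike in kind, and no conclusion is drawn from their difference.

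**Figure D2:**
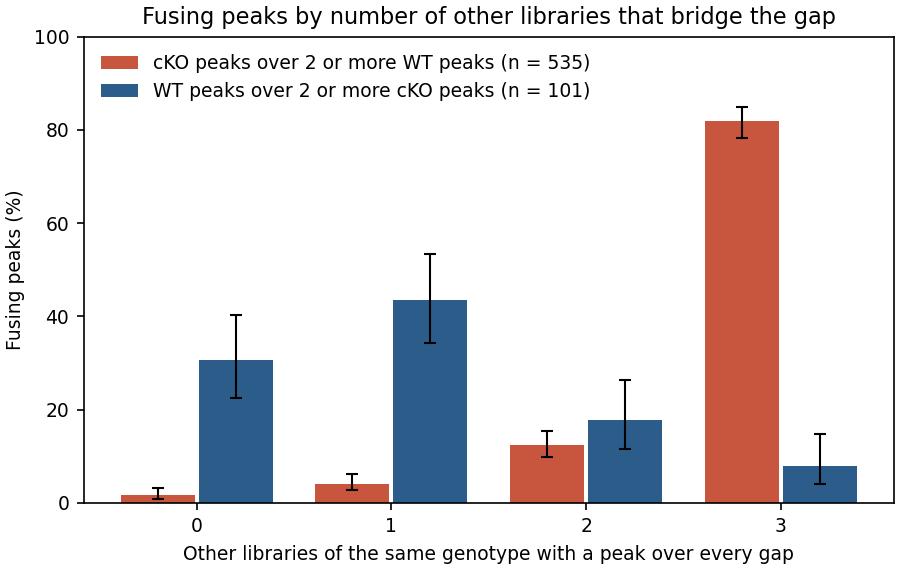
Fusing peaks (%, vertical axis) by the number of other libraries of the same genotype in which a peak spanned every gap (horizontal axis), with 95% Wilson intervals. In the cKO list (red, n = 535) 81.9% were spanned in all 3 other libraries, and in the WT list (blue, n = 101) 7.92% were.

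The strongest and the weakest WT component of each fusing peak were set side by side, an order that fixes which is higher. The deposited fold enrichment, the fragment pileup at a peak's summit over the background of its library, was 5.07 (4.69 to 5.44) at the median for the strongest component and 3.38 (3.19 to 3.38) for the weakest, beside a lowest value of 2.63 anywhere in the WT list and a median of 5.44 over autosomal WT peaks. The weakest component lay on 3 or more rows in 218 fusing peaks (40.7%; 36.7 to 45.0). The fusing peaks themselves had a median fold enrichment of 7.36 (6.71 to 8.02), and cKO peaks over 1 WT peak had one of 8.84. Where the summit could be placed, it lay in the strongest component in 301 of 414 peaks (72.7%; 68.2 to 76.8), in a gap in 52, in a weaker component in 35 and beyond the components in 26. At the median the strongest component was thus close to the average WT peak, and the weakest was near the lower end of the list. These are separate medians, not a ratio within each peak. When autosomal cKO peaks under 5000 bp were ranked by the deposited −log10 q and divided into 10 equal groups, fusing peaks were 0.0713% of the weakest group, 3.53% of group 6 and 2.88% of the strongest.

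Background, a guide to depth, differed between the libraries that named the peaks. The background recovered from the fold enrichment values was 4.33 fragments per base in WT and 5.11 in cKO, 1.18 times higher. It can differ with fragment length as well as with depth, and the background of the other libraries is unknown. Fold values are therefore set side by side here, not compared between genotypes, and the part of depth in the fusions was not tested. As a check of the cell type, a transcription start of 40 of 43 genes of meiotic recombination and synapsis and 23 of 25 of the piRNA pathway lay in an autosomal WT peak under 5000 bp, as did 21 of 38 spermatid and flagellum genes, 8 of 22 spermatogonial and meiotic-entry genes and 3 of 27 markers of testis somatic cells (*Gata4*, *Star* and *Nr5a1*). Over all autosomal protein-coding genes this held for 9835 of 20807. In the cKO list the counts were 38, 22, 23, 11 and 7 in the same order, and 10955 over all genes. The spermatogonial genes present only there were *Zbtb16*, *Sohlh1* and *Lhx1*, and the 7 somatic markers were *Wt1*, *Amh*, *Inhbb*, *Cldn11*, *Star*, *Nr5a1* and the macrophage marker *Cd68*. No fusing peak held a somatic marker's start, and the part of somatic cells or spermatogonia in the fusions was not tested.

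Position in genes was taken from GENCODE M21, and a promoter was taken as the 1000 bp before and 100 bp after an annotated start. The centre of a fusing peak lay in a promoter in 210 (39.3%; 35.2 to 43.5), an exon in 86, an intron in 133 and intergenic sequence in 106. For cKO peaks over 1 WT peak the promoter share was 52.0% (51.2 to 52.8). With promoters of 3000 bp on either side of a start the shares were 73.8% and 72.6% (71.9 to 73.4), so the lower share of fusing peaks held only for the narrow promoter. A start of a protein-coding transcript lay anywhere inside 294 fusing peaks (55.0%; 50.7 to 59.1) and 58.2% (57.4 to 59.0) of peaks over 1 WT peak. The gaps themselves were centred in a promoter in 168 of 569 (29.5%; 25.9 to 33.4), an intron in 159, intergenic sequence in 131 and an exon in 111. Of the WT components, none were promoter peaks in 235 fusing peaks (43.9%; 39.8 to 48.2), some but not all were in 227 (42.4%; 38.3 to 46.7) and all were in 73 (13.6%; 11 to 16.8).

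Among the 294 peaks with a start, the start lay in a single WT component in 230, in 2 or more in 26, and in no component in 38. In 64 peaks (21.8%; 17.4 to 26.8) a start lay in a gap, that is, in sequence that the WT list left outside its peaks. Gaps fell on both sides of the start. In peaks with the start of 1 gene, 143 gap centres lay downstream, at a median of 818 bp (587 to 962), and 133 lay upstream, at −829 bp relative to the start (−967 to −702).

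**Figure D3:**
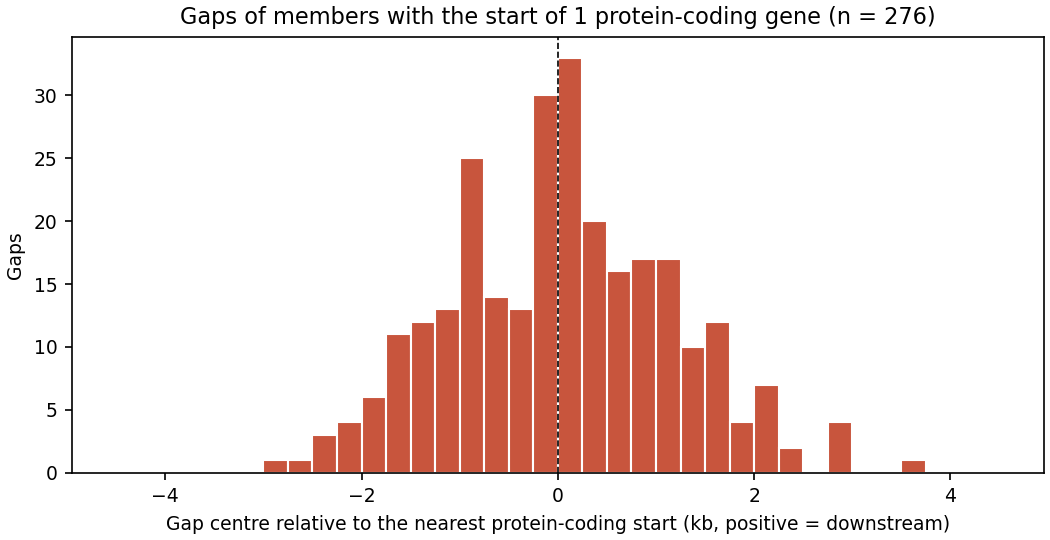
Number of gaps (vertical axis) by the position of the gap's centre relative to the nearest protein-coding start (kb, horizontal axis; positive values are downstream), for fusing cKO peaks that hold the start of 1 gene. The 276 gaps lie on both sides, 133 upstream and 143 downstream.

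In 13 fusing peaks (2.43%; 1.43 to 4.11) the starts of different protein-coding genes lay in different WT components, so that promoters separate in the WT list shared a single cKO peak. The pairs were *Dtymk* and *Ing5*, *Trp53i13* and *Abhd15*, *Vat1* and *Rnd2*, *Smim4* and *Nt5dc2*, *Tbc1d24* and *Ntn3*, *Ier3* and *Flot1*, *Bscl2* and *Gng3*, *Gm13278* and *Gm13275*, *Cdk5* and *Slc4a2*, *Sptbn4* and *Blvrb*, *Nacc1* and *Trmt1*, *Ccdc7a* and *Ccdc7b*, and *Fbxl12* and *Ubl5*. *Dtymk* makes thymidylate kinase for DNA synthesis, and *Ing5* a reader of histone H3 methylation. Their components had fold enrichments of 13.9 and 8.25, and the cKO peak, at 24.5, closed a gap of 729 bp in all 3 other cKO libraries. The 3 other WT libraries could all have spanned that gap as well. The *Gm13278* and *Gm13275* gap was the longest of the 13, at 1651 bp, and that of *Bscl2* and *Gng3* the shortest, at 352 bp. Both of those were also spanned in all 3 other cKO libraries. The *Ccdc7a* and *Ccdc7b* gap of 1447 bp was spanned in 2, and the gaps of the other 12 in all 3. Only 2.20% of the sampled 50-base words were unique in the *Gm13278* and *Gm13275* peak and 23.7% in the *Ccdc7a* and *Ccdc7b* peak, so these values may mix near-identical copies.

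The 535 peaks held the starts of 324 protein-coding genes, 2.96% of the 10955 autosomal genes with a start in a cKO peak under 5000 bp, and the gene groups below are read against that share. Each group counts only its genes with a start in such a cKO peak. Of the 24 BAF and PBAF subunit genes with a start in such a cKO peak, 3 lay in fusing peaks: *Arid2*, *Smarca2* and *Smarcc2*. *Arid2*, which encodes the ARID subunit of PBAF, had a cKO peak at chr15:96284070-96288961 with a fold enrichment of 30.1 over WT components of 17.8 and 8.07. It was 4892 bp wide, and the gap was 437 bp. *Smarca2*, which encodes the ATPase BRM, had components of 4.50 and 4.13 that lay 270 bp apart under a cKO peak of 5.73. *Smarcc2*, which encodes a core scaffold subunit, had components of 5.44 and 5.82 that lay 277 bp apart under a cKO peak of 7.85, with a start inside the gap. These 3 gaps were spanned in all 3 other cKO libraries, and up to 3, 2 and 3 other WT libraries could have spanned them too. *Arid1a* itself was no member: its cKO peak at chr4:133751655-133757725 covered 3 WT peaks but was 6071 bp wide.

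Genes of the DNA damage response that acts in meiotic silencing of X and Y gave 2 of 17, *Atr* and *Rnf8*. *Atr* encodes the kinase that phosphorylates H2AX on unsynapsed chromatin. Its WT components had fold enrichments of 3.19 and 10.9 and lay 569 bp apart, with the gap's centre 1082 bp upstream of the start, and the cKO peak at chr9:95855956-95858615 had 14.7. All 3 other cKO libraries spanned that gap, and at most 1 other WT library could have. *Rnf8* encodes the ubiquitin ligase that modifies histones at damage sites and in spermatids. Its gap was 1655 bp long and lay within the gene, between components of 6.94 and 4.13, under a cKO peak of 11.9. It too was spanned in all 3 other cKO libraries, and in up to 2 other WT libraries.

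Of the 7 H3.3 genes and chaperones with a start in a cKO peak under 5000 bp, *Ubn2* alone was a member. *H3f3b* and *Daxx* had a start in a WT peak but in no such cKO peak, so they could not be members. *Ubn2* encodes a ubinuclein of the HIRA complex, which deposits the histone variant H3.3. A WT peak of fold enrichment 14.8 at the start and an intergenic one of 3.38, present on 1 row, lay 579 bp apart, and the cKO peak at chr6:38431239-38435280 had 27.8 and ran 1431 bp past them. All 3 other cKO libraries and at most 1 other WT library spanned the gap. Of 38 genes of meiotic recombination and synapsis 1, *Hormad2*, was a member. *Hormad2* encodes a protein of unsynapsed chromosome axes, and its gap of 512 bp between components of 7.13 and 4.13 was spanned in none of the other cKO libraries.

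The remaining lists gave few members. Among 23 spermatid and flagellum genes 1 was a member, *Dnah17*, an axonemal dynein heavy chain, with components of 4.13 and 3.94 that lay 1031 bp apart under a cKO peak of 6.22. Among 11 spermatogonial and meiotic-entry genes 1 was, *Lin28a*, an RNA-binding repressor of let-7 microRNAs. The *Lin28a* start lay in the 268-bp gap between components of 3.56 and 2.63, and the cKO peak had 5.73. Among 11 genes of the Hox clusters 1 was, *Hoxa4*, whose start also lay in its gap, of 288 bp, between components of 3.0 and 2.81 under a cKO peak of 4.91. Among 73 cytosolic ribosomal protein genes 1 was, *Rpl36*, with a gap of 580 bp spanned in 2 other cKO libraries. Of 26 Polycomb genes, 22 piRNA pathway genes and 7 somatic markers with a start in a cKO peak under 5000 bp, 0 were members. These counts are a description, and no list was tested against the 2.96% of all genes.

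**Figure D4:**
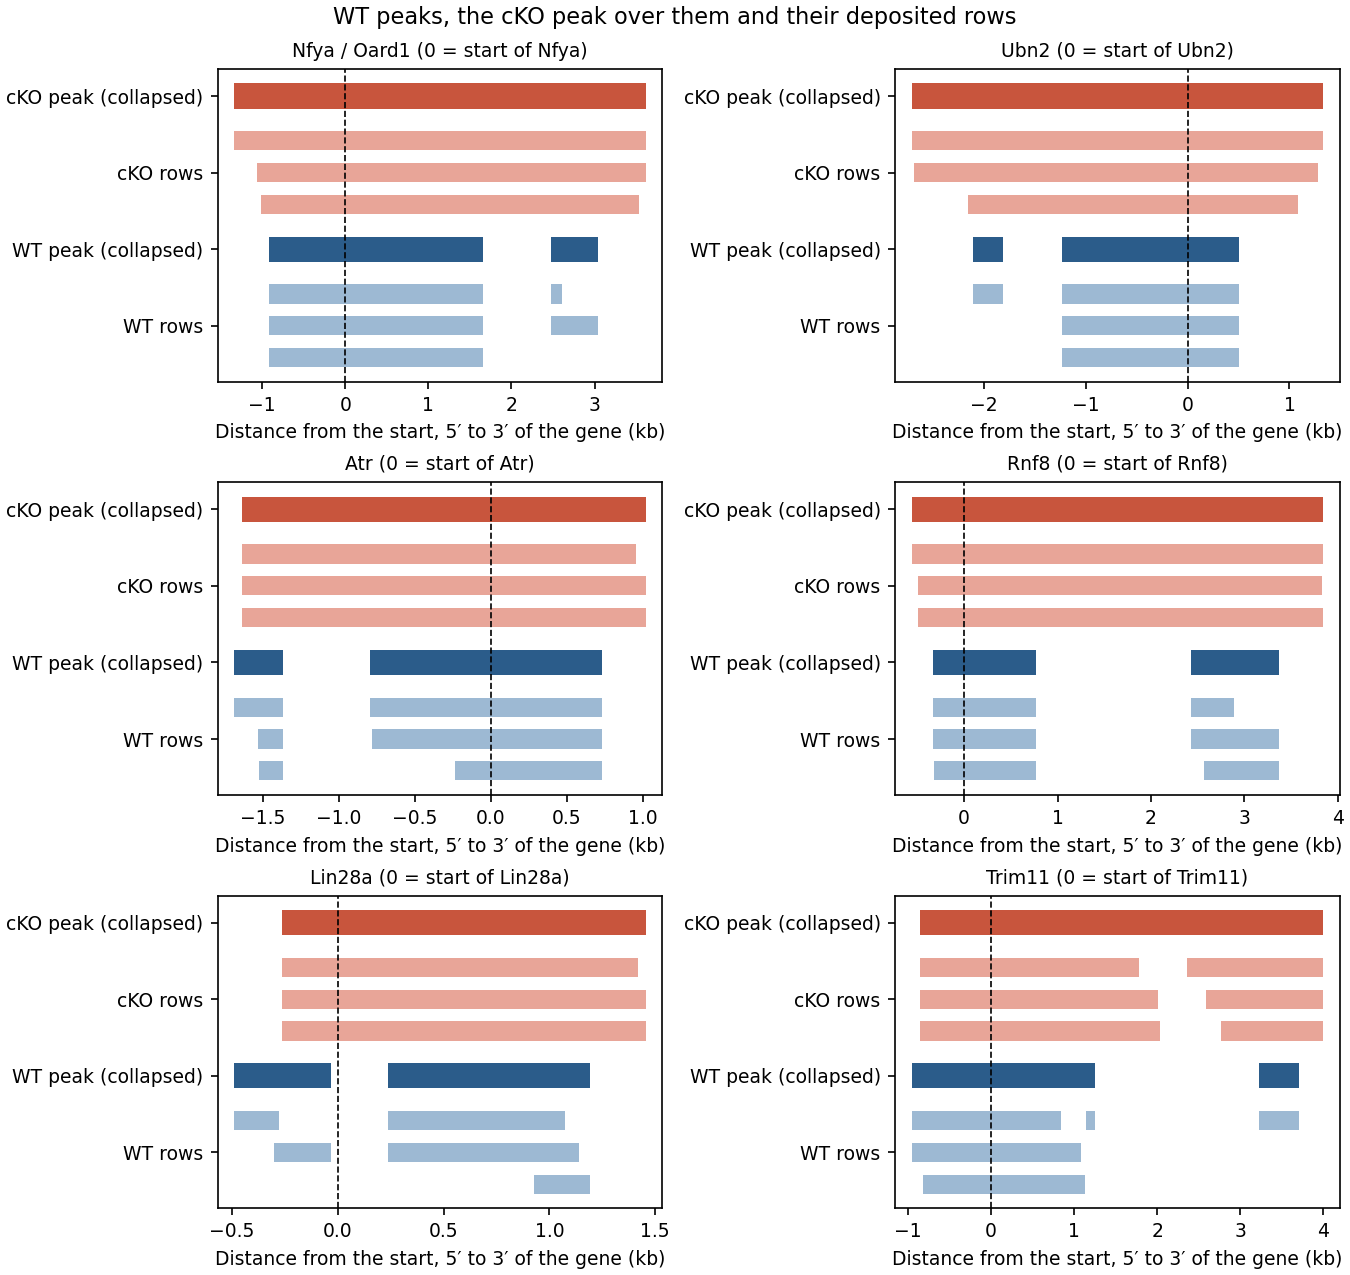
Fusing cKO peaks (dark red) and their deposited rows (light red) above the WT peaks (dark blue) and rows (light blue) at 6 loci, by distance from the start of the named gene in its direction of transcription (kb, horizontal axis). At *Nfya*, *Ubn2*, *Atr*, *Rnf8* and *Lin28a* 3 cKO rows run across the gap between the WT peaks, and at *Trim11* none does.

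Among promoters, the strongest fusing peak lay over the starts of *Nfya*, a subunit of the CCAAT-binding factor NF-Y, and *Oard1*, an ADP-ribose hydrolase, at chr17:48406112-48411064. It had a fold enrichment of 51.9 and a −log10 q of 430.0, over WT components of 33.4 and 4.13 that lay 825 bp apart. The next were *Dnajb4* and *Fubp1* (41.2), *Ensa* (39.3), *Oaz1* (37.0), *G3bp1* (36.8) and *Pcid2* and *Cul4a* (36.5). *Fubp1* encodes a DNA-binding regulator of Myc, *Ensa* an inhibitor of the phosphatase PP2A in cell division, *Oaz1* the antizyme that limits polyamine synthesis, *G3bp1* a stress granule protein and *Cul4a* a ubiquitin ligase scaffold. In all 6 the strong component held a start, with fold enrichments from 20.3 to 33.4, and the weak one, from 3.0 to 4.13, was 609 to 996 bp away. The *Ensa* gap was spanned in 2 other cKO libraries, and the rest in all 3.

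The strongest promoter peaks over 3 WT peaks were those of *Slc15a4*, a lysosomal peptide transporter (27.2), *Gm20878* (26), *Dvl1*, a transducer of Wnt signals (19.1), *Tmem179b* (18.5), *Grina*, a membrane protein of the TMBIM family (17.8), and *Sntb2*, a syntrophin (17.3). *Slc15a4* joined components of 15, 3.19 and 3.19 across gaps of 309 and 1021 bp. *Dvl1* joined components of 12.2, 3.56 and 2.81 across gaps of 279 and 393 bp. In all 6, every gap was spanned in all 3 other cKO libraries. None of the sampled words in the *Gm20878* peak was unique (0%), so its values are uncertain. In *Sntb2* the 3 other WT libraries could have spanned both gaps as well.

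The most bases between WT components at a promoter were 3094 bp, at *Ppp3r2*, a testis calcineurin subunit, where components of 2.63, 2.63 and 3.94 were joined under a cKO peak of 5.07. *Kcnj9*, a potassium channel subunit, followed with 2515 bp, *Repin1*, a zinc finger protein, with 2088, *Prrg2* and *Nosip* with 2069, *Trim11*, a ubiquitin ligase, with 1977, and *Vamp5*, a vesicle fusion protein, with 1867. These long gaps were spanned in all 3 other cKO libraries only at *Vamp5*, in 2 at *Ppp3r2*, *Kcnj9*, *Repin1* and *Prrg2* and *Nosip*, and in none at *Trim11*. The fewest were 265 bp at *Gaa*, *Mmp23* and *Il11ra2*, 266 bp at *Pom121* and at *Ppp1r15a* and *Plekha4*, and 268 bp at *Lin28a*. All 6 lie within the 275 bp of the cKO joining distance.

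The most bases beyond the outermost WT components were 2636 bp at *Gal*, the galanin gene, followed by *Fam186b* (2453), *Mtmr14*, a lipid phosphatase (2301), *Tada2b*, a SAGA subunit, with *Ccdc96* (2238), *Hsf1*, the heat shock factor (2212), and *Nlrc3*, an innate immune regulator (2107). At *Fam186b* the cKO peak was 3416 bp wide and only 518 bp of it lay in WT components, which had fold enrichments of 2.63 and 3.19. At *Tada2b* the components had 17.6 and 3.0 and the cKO peak 27.0. The gap was spanned in all 3 other cKO libraries in these except *Hsf1*, where it was spanned in 2.

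**Figure D5:**
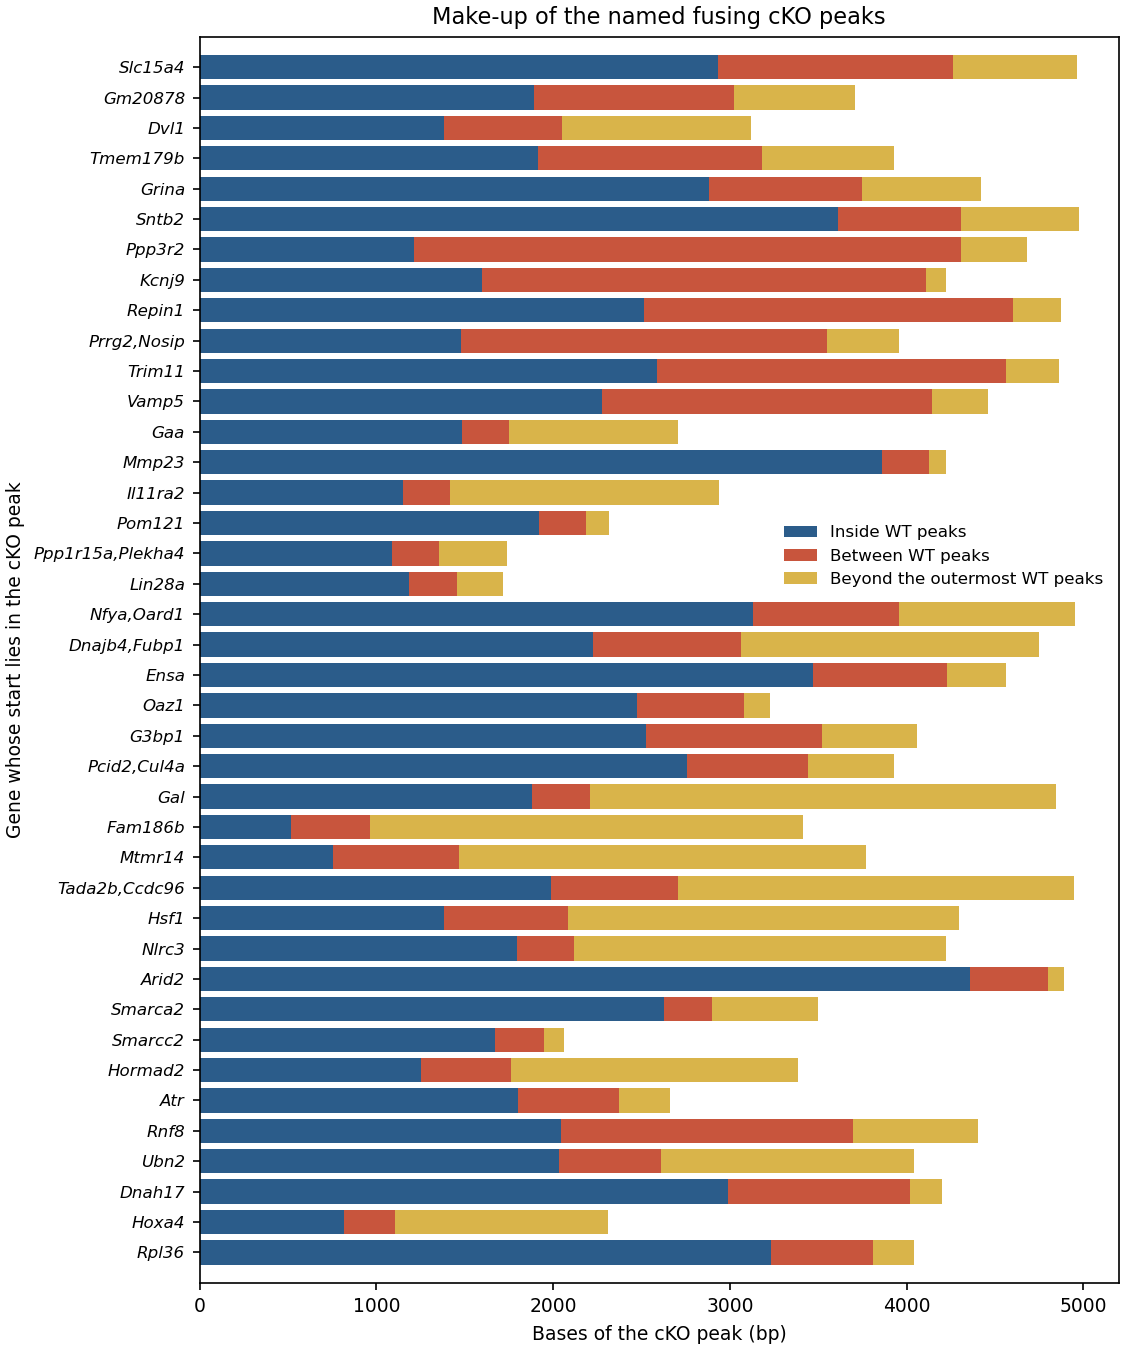
Bases of each named fusing cKO peak (bp, horizontal axis) inside WT peaks (blue), between them (red) and beyond the outermost ones (yellow), by the gene whose start the peak holds. *Ppp3r2* has the longest red part, 3094 bp, and *Gal* the longest yellow part, 2636 bp.

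The added sequence differed in base composition from the sequence it joined. Median GC content was 50.7% in gaps, 50.4% (49.5 to 51.1) in the flanks beyond, and 54.7% (54.2 to 54.9) in WT components. The observed over expected CpG ratio is high in CpG islands and low in most of the genome. It was 0.267 (0.247 to 0.285) in gaps and 0.337 (0.315 to 0.375) in components. Whole fusing cKO peaks had 0.392 (0.355 to 0.428), and whole cKO peaks over 1 WT peak had 0.585 (0.579 to 0.591). Repeats took 17.95% of gap bases, 13.6% of component bases and 15.7% of all bases in fusing peaks, against 16.4% in peaks over 1 WT peak. At least 50% of the sampled 50-base words were unique in 544 of 569 gaps (95.6%; 93.6 to 97) and in 510 of 535 fusing peaks.

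Short motifs were counted on both strands in a 150-bp window at the centre of each region, with no motif contained in another. In regions narrower than 150 bp, such as a 45-bp component at *Dvl1*, the window also took in sequence outside the region. GGGCGG, the GC box, was present in 12.3% (9.85 to 15.3) of gaps, 16.4% (14.4 to 18.7) of WT components, 29.6% (28.9 to 30.3) of cKO peaks over 1 WT peak and 26.4% (25.9 to 26.8) of 150-bp windows on 31396 autosomal RefSeq starts. GCGCANGC, part of the NRF1 motif, was present in 0.703% (0.274 to 1.79) of gaps, 3.81% (2.83 to 5.11) of components, 6.90% of peaks over 1 WT peak and 6.28% of starts. CCGGAAGT, an ETS motif, was present in 0.703% of gaps, 0.544% of components, 2.31% of peaks over 1 WT peak and 2.91% of starts, and TGACGTCA, the cAMP response element, in 0 of 569 gaps (up to 0.671%), 0.181% of components, 0.931% of peaks over 1 WT peak and 1.22% of starts. CCAAT was present in 15.1% (12.4 to 18.3) of gaps, 17.4% (15.3 to 19.8) of components, 17.7% of peaks over 1 WT peak and 18.9% of starts. CAGTTG, a MYB motif, in 7.91% (5.96 to 10.4) of gaps, 7.44% of components and 6.05% of starts, and AGGGGGC, part of the CTCF motif, in 5.27% (3.72 to 7.43), 5.90% and 5.15%, were present at shares whose intervals in gaps included the share in starts. In gaps the intervals of the 4 motifs that contain CpG, and of CCAAT, lay under the share in starts. Against the components, the interval in gaps and that in components were apart only for GCGCANGC, and no difference between them was tested. A match is a description of the letters, not a bound site.

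The share of autosomal cKO peaks that were fusing ranged from 1.14% on chromosome 14 (12 peaks) to 2.70% on chromosome 17 (42 peaks). The width limit fell between a 4973-bp peak at *Sntb2* and a 4971-bp peak in *Dazap1*, just inside, and a 5017-bp peak over *Lmtk3* and *Sult2b1* and a 5019-bp peak near *Trp53i13*, just outside. At the overlap limit, the peaks at *Gpaa1* and near *Gm21093* shared 1 bp with a WT component, and cKO peaks near *Neurod2* and *2410015M20Rik* stopped 0 and 1 bp short of another WT peak.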

How the data were processed

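ATAC-seq libraries (4 *Arid1a* WT and 4 *Arid1a* cKO, grouped by the genotype in their titles) were represented by 1 deposited peak list per genotype. The authors trimmed reads, aligned them to mm10 with bowtie2, removed duplicates and mitochondrial reads, called peaks per library with MACS2 (q-value 0.05, no local lambda), filtered out blacklisted intervals and intersected the lists of a genotype. No mapping-quality filter was stated. Each row gave coordinates, a peak name, a score, a fold enrichment ratio, −log10 p and −log10 q values and a summit offset, all as deposited. No read counts were used, and depth per library is unknown beyond the background given above.

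Rows were collapsed by peak name with pandas 2.3.3, and intervals were Wilson or order-statistic 95% intervals. Overlap, gap and extra-base counting was tested on simulated intervals. Members, gene lists and thresholds were chosen with earlier results of these data known. Named genes were, among fusing peaks with a protein-coding start and 3 or more rows, the 6 with the most WT peaks, the most and fewest bases between, the highest −log10 q and the most bases beyond, with ties broken by −log10 q, and then fusing peaks with a start of a listed gene. The 13 peaks over separate promoters were named after their values were seen. Alternatives changed the overlap, width, q, row and uniqueness limits, merged rows, equalised list lengths, widened the promoter and, chosen after seeing the data, kept only gaps over the joining distance and widened the promoter for peaks over 1 WT peak.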

Additional observations from a re-analysis of the deposited data

How the results depend on the processing

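The number of fusing cKO peaks exceeded that of fusing WT peaks under all 9 alternatives that gave both, with a ratio from 2.86 to 24.5 beside 5.30. Fusing cKO peaks numbered 171 at a −log10 q of at least 5, 35 at 10 or more, and 203 when both lists were limited to peaks on 3 or more rows, and 878 and 268 with no width limit and a limit of 3000 bp. Fusing WT peaks numbered 40 and 8 at those −log10 q limits, 19 with at least 50% of each joined peak inside, and 30 at equal list lengths. The median of bases between was 472 bp with overlapping rows merged, 477 bp at a −log10 q of 10 or more, 463 bp on 3 or more rows, 759 bp without a width limit and 420 bp under 3000 bp. Median extra bases were 1656.5 and 919 bp without the width limit and under 3000 bp. The promoter share was 29.7%, 45.1% and 73.8% without the limit, under 3000 bp and with promoters of 3000 bp on either side. The share spanned in all 3 other cKO libraries was 87.2% on 3 or more rows, 77.4% without the limit and 85.4% under 3000 bp. Leaving out gaps within the joining distance, an alternative chosen after seeing the data, left 510 members. No paired analysis was possible because the 1 list per genotype carries no replicate numbers, and for the same reason no replicate could be left out.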

Other observations

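The X and Y chromosomes were outside the rule. On X 16 of 1162 cKO peaks under 5000 bp covered 2 or more WT peaks, and 5 WT peaks covered 2 or more cKO peaks. On Y these counts were 36 of 488 and 8. Of the 482 autosomal cKO peaks of 5000 bp or more, 343 covered 2 or more WT peaks, and of the 141 such WT peaks 10 covered 2 or more cKO peaks.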
